A study of Arabidopsis thaliana with 6 samples.

Results

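The genes described here encode UDP-dependent glycosyltransferases of Arabidopsis thaliana whose symbols begin with UGT and a number. They were taken from the array annotation as the probe sets assigned to 1 gene with such a symbol, leaving out UGT78D2, with 1 probe set per gene. This gave 46 genes of 11 subfamily numbers (UGT71 to UGT88), out of 22589 genes and unnamed probe sets on the array, and each of the 46 had 1 probe set. A further 3 probe sets assigned to several genes carried a UGT symbol and were not used. Transcript levels had been recorded on 6 Affymetrix ATH1 arrays in whole 2-week seedlings raised on plates that held 2% sucrose, under a daily cycle of 16 h of light and 8 h of darkness. The genotypes were Columbia-0, the wild type, and lcbk1-2, a mutant given as a knock-out of LCBK1, whose product phosphorylates the long-chain bases of sphingolipids. LCBK1 itself was not on a named probe set, so the loss of its transcript was not checked here. Seedlings of both genotypes came from 22 °C (time 0 h) or had spent 3 h or 24 h at 4 °C. A genotype at a given time is represented by 1 array, so its value has no replicate error, and precision is limited by how few arrays there are. The samples used here hold no seedlings kept at 22 °C to 3 h or 24 h, so cold, time of day and age cannot be told apart.

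Enzymes of this family transfer a sugar from a UDP-sugar, most often UDP-glucose, to a small acceptor molecule. The sugar makes the acceptor more soluble, usually ends its activity, and allows it to be stored in the vacuole. In Arabidopsis the acceptors include flavonols, hydroxycinnamic acids, monolignols, sterols, the precursors of glucosinolates, and the hormones auxin, cytokinin, abscisic acid and salicylic acid. The number in a symbol, called the subfamily number here, groups the proteins by sequence. Genes of the same number often, but not always, share acceptors. In whole seedlings a lower signal can reflect fewer cells of a type or less RNA per cell, and these cannot be told apart.

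The arrays had median signals between 144 and 171, and between 63.6% and 66.1% of their probe sets lay above the floor used here, a signal of 65.9 (the 35th percentile of all values). As alternatives the floor was set at the 20th percentile, called the lower floor below, at the 50th, called the higher floor, or left out. The wild-type 0 h array stood apart in its hybridization controls, RNAs added before hybridization, with a signal 2.23 times the other arrays' median, against 0.858 to 1.12 times for the other 5. Each count of UGT genes called in the fit against 0 h is given below also without that array. The wild type's own changes rest on it, and the patterns of calls and the counts of other gene lists were not recomputed without it. Comparisons of 24 h with 3 h, or within lcbk1-2, do not set a change against it. Of the green tissue markers, LHCB4.2 and PORB were on named probe sets, and of the root markers PYK10, EXPA7 and EXPA18. These 5 lay above the floor on all 6 arrays, while the pollen gene AT5G45880, the only flower or pollen marker on a named probe set, lay under it on all 6. Some of these markers moved with time: at 24 h LHCB4.2 stood at -0.995 (adjusted p = 0.0024), EXPA7 at -0.54 (adjusted p = 0.048) and EXPA18 at -0.49 (adjusted p = 0.046) on the log2 scale in limma, and PORB at -0.74 at 3 h (adjusted p = 0.026). PYK10 did not pass at either time. Their part in the changes of the UGT genes was not tested.

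Of the 46 UGT genes 24 lay above the floor on all 6 arrays and 13 on 0 arrays. The 13 were UGT71B5, UGT71B6, UGT71B8, UGT73C2, UGT73C7, UGT73D1, UGT74F1, UGT76E1, UGT76E2, UGT76E12, UGT84B1, UGT84B2 and UGT85A3. They include genes of hormone conjugation, such as UGT71B6, whose product glucosylates abscisic acid, UGT74F1, for salicylic acid, and UGT84B1, for auxin. At this sensitivity no change could be read for them. UGT78D3 was above the floor on 2 arrays, those of 24 h, which makes 14 genes under the floor on most arrays. The other 8 were above it on 3 to 5 arrays. Testing was limited to the 33 genes that exceeded the floor on 2 or more arrays, 71.7% of the 46, against 69.3% of all features. UGT73C1, UGT84A1 and UGT78D3 were tested only through their signal in the cold, and UGT71C1, UGT85A4 and UGT85A5 lay at the floor on both arrays of 24 h. For these 6 the direction of a change from 0 h to 24 h was thus fixed. For all of them but UGT85A5 a call was also close to given. The fold changes of these 6 against a time at the floor are lower bounds. Since values held at the floor show no spread, the SE and p of these genes can be too small.

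**Figure D1:**
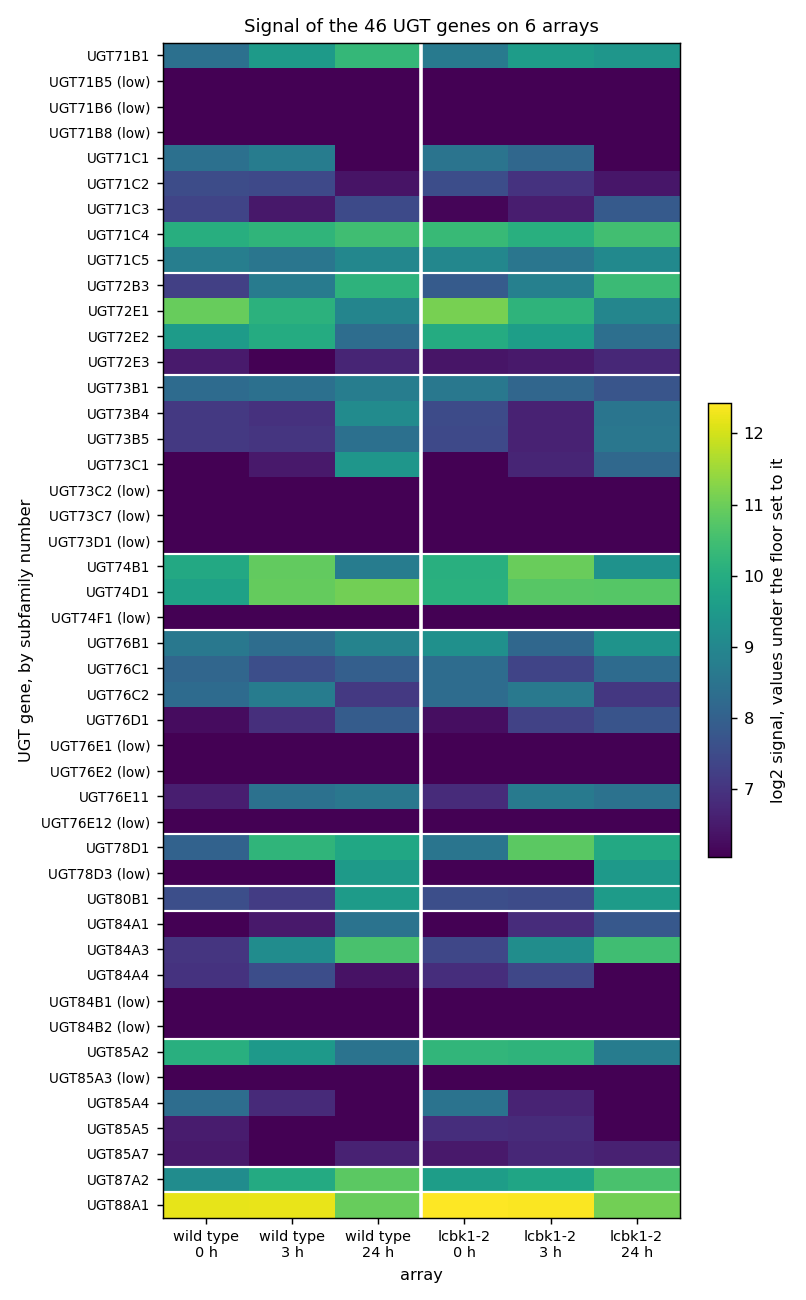
Signal of the 46 UGT genes (rows, grouped by subfamily number between white lines) on the 6 arrays (columns), as log2 of the signal with values under the floor of 65.9 set to it. Genes under the floor on at least 4 of the 6 arrays are marked low, and 13 rows are at the floor throughout.

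Changes with time were estimated with limma across all 15658 features that exceeded the floor on 2 or more arrays, with genotype and time as additive terms, so that a change with time is 1 value shared by both genotypes. SE and p then combine array error and any unequal response of the genotypes, not a spread between replicates. After 3 h at 4 °C, 8 UGT genes had risen and 3 had fallen (adjusted p under 0.05). That is 33.3% of the 33, against 17.2% of all features tested, of which 9.28% were higher and 7.88% lower. The rises were UGT78D1, UGT84A3, UGT76E11, UGT72B3, UGT74D1, UGT74B1, UGT76D1 and UGT84A4, the first 4 by at least 2-fold (4.27% of all features), and the falls were UGT85A4, UGT72E1 and UGT76C1, the first by at least 2-fold (2.47%). The median log2 change of the 33 was -0.01, beside -0.03 for all features. The 3 h calls depended on every array: they numbered 4 without the wild-type 3 h or the lcbk1-2 3 h array and 0 in limma without any 1 of the others, where 13 to 15 genes had an unadjusted p under 0.05. With all arrays 17 did, beside 5159 of all 15658 features. The calls over all features fell likewise, from 2687 to 486 and 248 without a 3 h array and to between 0 and 24 without any 1 of the others. Each such fit leaves 1 residual degree of freedom, and the direction of all 11 changes was the same in each.

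After 24 h, 14 UGT genes had risen and 11 had fallen, 75.8% of the 33, against 47.8% of all features (19.3% higher, 28.6% lower). All 14 rises and 8 of the falls were at least 2-fold, against 9.39% and 12.1% of all features. The median log2 change of the 33 was 0.28, beside -0.11 for all features. With the arrays scaled to a common median, 16 rose and 11 fell, while the share of rises among all features called moved from 40.3% to 55.2% and the median of all features from -0.11 to 0.06. From 3 h to 24 h the same scaling moved that share from 37.8% to 58.4%, with 15 UGT genes up and 10 down. The count of 25 was 21 without the wild-type 0 h array and 16 without the wild-type 24 h array. In 15 of the 25 genes the call held whichever array was left out, and the direction did in all 25. Among the genes whose call held are UGT71C1, UGT73C1, UGT78D3, UGT84A1 and UGT85A4, which have a time at the floor. For these, leaving out an array is no real test of the call. Over all features the calls at 24 h also fell in number whichever array was left out. Between 3 h and 24 h 13 UGT genes rose and 11 fell, 72.7% of the 33, against 34% of all features (12.9% higher, 21.2% lower). Of these, 8 rises and 8 falls were at least 2-fold, against 5.38% and 8.42% of all features. This count was 15 without the wild-type 3 h array and 9 without either 24 h array. The calls of UGT71C1, UGT74B1, UGT76C2, UGT78D3, UGT80B1, UGT84A4 and UGT88A1 between 3 h and 24 h held whichever array was left out. Those of the other genes did not. For UGT71C1 and UGT78D3, each with 1 of these times at the floor, this is again no real test. The calls between 3 h and 24 h over all features fell in number too whichever array was left out.

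By their calls against 0 h, 6 genes were higher at both times (UGT72B3, UGT74D1, UGT76D1, UGT76E11, UGT78D1 and UGT84A3) and 2 were lower at both (UGT72E1 and UGT85A4). A further 8 had passed as higher and 7 as lower at 24 h alone. UGT74B1 and UGT84A4 were higher at 3 h and lower at 24 h. UGT76C1 was lower at 3 h alone, and 7 genes passed at neither time: UGT71C3, UGT71C4, UGT71C5, UGT72E3, UGT73B1, UGT76B1 and UGT85A7. A gene that passed at 1 time alone was not thereby shown to differ between the times, for which the comparison of 24 h with 3 h is given. These patterns were not counted over all features, so none is shown to be more common among UGT genes than elsewhere.

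**Figure D2:**
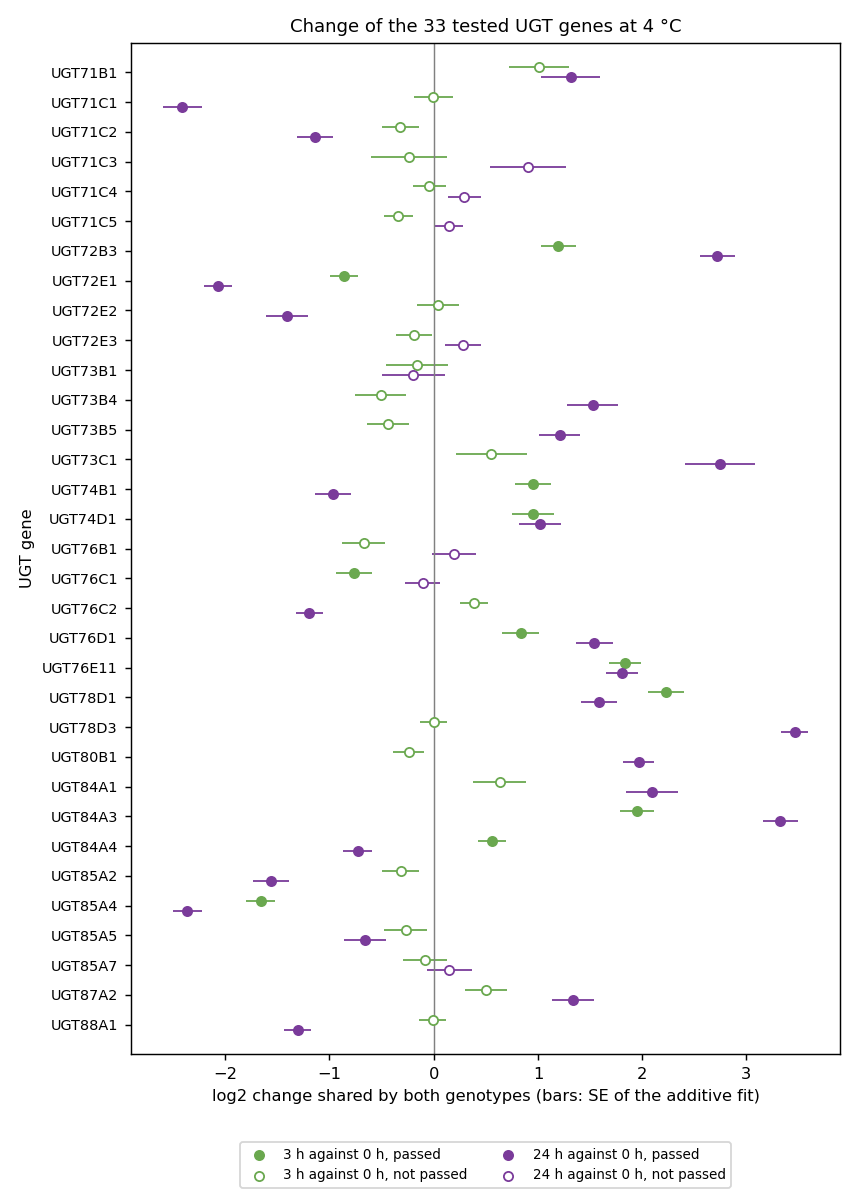
Log2 change of the 33 tested UGT genes at 3 h (green) and 24 h (purple) against 0 h, shared by both genotypes, with the SE of the additive fit as bars and values under the floor set to it. Filled points passed an adjusted p of 0.05; at 24 h the filled points lie between -2.41 (UGT71C1) and 3.46 (UGT78D3).

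Among genes of hydroxycinnamic acid conjugation, UGT84A1 and UGT84A3 had risen at 24 h and UGT84A4 had fallen. Their products attach glucose to sinapic, ferulic, caffeic and coumaric acids as esters, the form from which sinapate esters are made. The signal of UGT84A3 in the wild type was 130.1 at 0 h, 562 at 3 h and 1558 at 24 h, and in lcbk1-2 it was 168, 581 and 1413. Each later array was above the one before it in both genotypes. The gene had risen 3.86-fold by 3 h (log2 change 1.95, SE 0.17, adjusted p = 0.0016 in limma) and reached a log2 change of 3.33 at 24 h (SE 0.17, adjusted p = 6.4e-05). UGT84A1 was listed at 2.30 at 0 h, 89.5 at 3 h and 355 at 24 h in the wild type and at 2.44, 117 and 223 in lcbk1-2. Both 0 h arrays lay far under the floor and the other 4 above it. Against the floor it rose at least 4.26-fold by 24 h (adjusted p = 0.0011), a call close to given with both 0 h arrays held at the floor. The change at 3 h, 0.63, did not pass in limma (adjusted p = 0.141) but did with the lower floor (2.07) or without a floor (4.94). Its direction against a floor was fixed, and its size and call depended on how the very low 0 h signals were treated. UGT84A4 went the other way at 24 h: its signal was 126 at 0 h, 189 at 3 h and 81.4 at 24 h in the wild type and 117, 170.3 and 61.4 in lcbk1-2, highest at 3 h and lowest at 24 h in both. It changed by 0.56 at 3 h, by -0.73 at 24 h and by -1.29 from 3 h to 24 h (SE 0.14, adjusted p = 0.0012), the last of which was -0.18 with the higher floor (adjusted p = 0.262). The call of UGT84A4 at 3 h was lost under median scaling, with other floors and in limma-trend. Its 24 h call was lost with the higher floor and without the lcbk1-2 0 h or the lcbk1-2 24 h array (-0.67 and -0.64). UGT84B1 and UGT84B2, of the same subfamily number, were under the floor on all 6 arrays.

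The UGT72E genes, whose products glucosylate monolignols and their aldehydes, the building blocks of lignin, fell or did not pass. UGT72E1, whose product acts on coniferyl and sinapyl aldehydes, had a signal of 1982 at 0 h, 1141 at 3 h and 498 at 24 h in the wild type and of 2212, 1169.7 and 502 in lcbk1-2. The genotypes were close at each time, and the times did not overlap. The gene had fallen 1.81-fold by 3 h (log2 change -0.86, adjusted p = 0.01) and 4.19-fold by 24 h (-2.07, SE 0.13, adjusted p = 1.3e-04). UGT72E2, the main enzyme for coniferyl alcohol, read 744 at 0 h, 1002 at 3 h and 322 at 24 h in the wild type and 1002, 788 and 329.8 in lcbk1-2, where the 2 arrays of 24 h were the lowest. It changed by 0.04 at 3 h, which did not pass, and fell 2.65-fold by 24 h (adjusted p = 0.0023, a call lost without either 24 h array at log2 changes of -1.41 and -1.40). UGT72E3, with signals between 64.0 and 109, changed by 0.28 at 24 h and did not pass, except under median scaling. UGT72B3, in another branch of the same subfamily number, rose at both times. Its signal was 153 at 0 h, 418 at 3 h and 1160.3 at 24 h in the wild type and 236, 453 and 1353 in lcbk1-2, without overlap between the times. The log2 change was 1.19 at 3 h (adjusted p = 0.0077) and 2.72 at 24 h (SE 0.17, adjusted p = 1.1e-04).

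**Figure D3:**
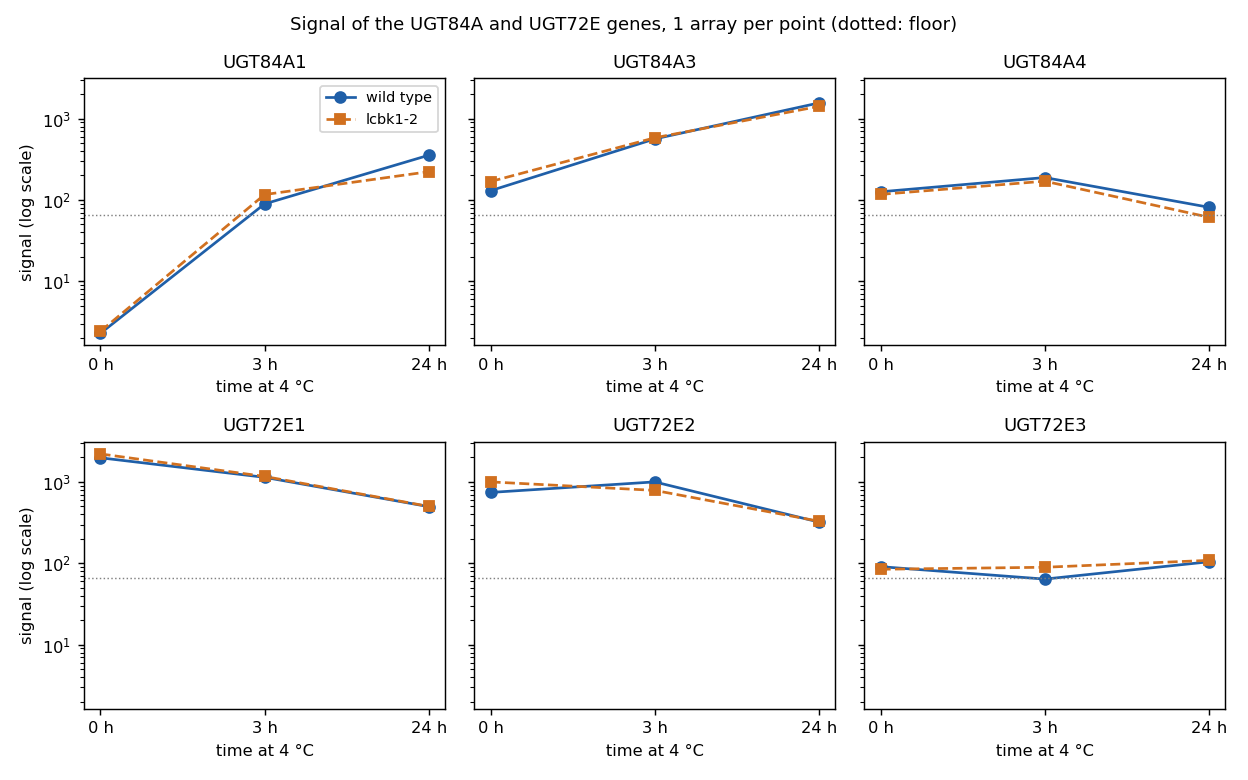
Signal (log axis) of the 3 UGT84A genes tested and the 3 UGT72E genes by time at 4 °C, 1 array per point, wild type as circles and lcbk1-2 as squares, with the floor of 65.9 dotted. UGT84A1 and UGT84A3 end above their 0 h signal, and UGT84A4, UGT72E1 and UGT72E2 end below it.

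Both UGT78D genes described here rose in the cold, UGT78D1 by 3 h and UGT78D3 between 3 h and 24 h. UGT78D1 encodes a flavonol rhamnosyltransferase, and UGT78D3 a flavonol arabinosyltransferase. UGT78D1 had a signal of 266 at 0 h, 1189 at 3 h and 916 at 24 h in the wild type and of 368, 1810.3 and 959.9 in lcbk1-2, highest at 3 h in both and at 24 h still above 0 h. Its rise was 4.69-fold at 3 h (log2 change 2.23, SE 0.17, adjusted p = 0.0012) and 1.58 on the log2 scale at 24 h (adjusted p = 7.6e-04). The decline from 3 h to 24 h, -0.65, passed (adjusted p = 0.031), but not under median scaling, with the lower floor or without a floor. UGT78D3 was listed at 2.60 at 0 h, 5.22 at 3 h and 740.3 at 24 h in the wild type and at 4.70, 54.9 and 713 in lcbk1-2, so that only the arrays of 24 h were above the floor. It rose at least 11.0-fold between 0 h and 24 h (adjusted p = 3.3e-05) and at least 11.0-fold between 3 h and 24 h (adjusted p = 1.1e-04). Both calls were close to given, since every array of 0 h and 3 h was held at the floor, and these p can be too small.

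UGT74B1 encodes the enzyme that adds glucose to the sulphur of thiohydroximates, a core step of glucosinolate synthesis, and UGT74D1 an enzyme that conjugates auxin and its oxidised form. UGT74B1 had a signal of 949 at 0 h, 1910.3 at 3 h and 423 at 24 h in the wild type and of 1076, 1998 and 632 in lcbk1-2. Both 3 h arrays were above all others and both 24 h arrays below all others. The log2 change was 0.95 at 3 h (adjusted p = 0.015, which became adjusted p = 0.061 with the lower floor) and -0.97 at 24 h (adjusted p = 0.0048), and from 3 h to 24 h the gene fell 3.78-fold (-1.92, SE 0.17, adjusted p = 6.8e-04). The fall against 0 h was lost without the wild-type 0 h, the wild-type 24 h or the lcbk1-2 0 h array (adjusted p = 0.071, 0.0517 and 0.0547). UGT74D1 rose by 0.95 at 3 h and by 1.02 at 24 h (adjusted p = 0.0077) and changed by 0.07 between them. Its 24 h call was lost without any of the wild-type 0 h array, that of 24 h, or the lcbk1-2 24 h array, at log2 changes of 0.69, 0.80 and 1.24, and its 3 h call with the lower floor or without a floor.

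Of 3 genes of cytokinin conjugation, UGT76C2 was lower at 24 h than at 0 h, UGT76C1 did not pass there, and UGT73C1 was higher, a call close to given. UGT76C1 and UGT76C2 encode N-glucosyltransferases of cytokinins, and the product of UGT73C1 glucosylates them on oxygen. UGT76C2 read 311 at 0 h, 421 at 3 h and 137 at 24 h in the wild type and 315, 398 and 136 in lcbk1-2, with the genotypes close at each time. It did not pass at 3 h (0.39, except with the higher floor) and had fallen 2.29-fold at 24 h (log2 change -1.19, SE 0.13, adjusted p = 7.9e-04). UGT76C1 fell at 3 h (log2 change -0.76, adjusted p = 0.031) and rose again by 0.66 to 24 h, and both calls were lost with the lower floor or without a floor. It stood at -0.11 against 0 h at 24 h, which did not pass. UGT73C1 was listed at 3.07 at 0 h, 89.4 at 3 h and 672 at 24 h in the wild type and at 2.60, 105 and 292 in lcbk1-2. Its 0 h arrays were under the floor, its 3 h arrays just above it, and the wild-type 24 h array was the highest. The gene rose at least 6.72-fold by 24 h (adjusted p = 0.0012), and its log2 change against the floor was 3.35 in the wild type but 2.15 in lcbk1-2. The 3 h change of 0.55 did not pass, but did without a floor (4.675). Its direction against a floor was fixed too, and its size and call depended on the very low 0 h signals.

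Of the other UGT76 genes tested, UGT76E11 and UGT76D1 rose. UGT76E11, whose product glucosylates flavonoids, had a signal of 95.9 at 0 h, 346 at 3 h and 379 at 24 h in the wild type and of 113, 399.9 and 348 in lcbk1-2, with all 4 cold arrays above both 0 h arrays. It rose 3.57-fold by 3 h (log2 change 1.84, SE 0.15, adjusted p = 0.0014) and stood at 1.80 at 24 h (adjusted p = 3.1e-04). UGT76D1, whose product acts on dihydroxybenzoic acids derived from salicylic acid, read 76.4 at 0 h, 120.1 at 3 h and 240.4 at 24 h in the wild type and 77.8, 158 and 209 in lcbk1-2. The order was 0 h, 3 h and 24 h in both genotypes, from a start just above the floor. Its log2 change was 0.84 at 3 h, a call lost with any other floor, and 1.54 at 24 h (adjusted p = 9.6e-04). UGT76B1, whose product conjugates isoleucic acid, salicylic acid and N-hydroxypipecolic acid in defence, passed in neither comparison with 0 h (-0.67 and 0.20). From 3 h to 24 h it rose by 0.87 (adjusted p = 0.022), but not with the lower floor.

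In the UGT73B group, UGT73B4 and UGT73B5, genes known for their response to pathogens and oxidative stress, rose late, and UGT73B1 did not pass. UGT73B4 had a signal of 138 at 0 h, 124 at 3 h and 559 at 24 h in the wild type and of 181, 99.9 and 370.0 in lcbk1-2. UGT73B5 read 137 at 0 h, 129.6 at 3 h and 338 at 24 h in the wild type and 177, 101 and 381 in lcbk1-2. For both genes the 24 h arrays were above all others and the 3 h arrays were the lowest of each genotype. UGT73B4 rose by 1.53 against 0 h (SE 0.24, adjusted p = 0.0033) and 4.09-fold from 3 h, and UGT73B5 by 1.21 (SE 0.20, adjusted p = 0.0037) and 3.13-fold. Without the wild-type 24 h array the 24 h call was lost for UGT73B4 (adjusted p = 0.0796) and for UGT73B5 (1.29, adjusted p = 0.0738), and for UGT73B5 also without the wild-type 0 h or the lcbk1-2 24 h array, at 0.98 and 1.13. UGT73B1 was at 310.3 at 0 h, 338 at 3 h and 430.2 at 24 h in the wild type and at 386, 285 and 213 in lcbk1-2, highest at 24 h in the first and lowest at 24 h in the second.

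In the UGT71 genes 2 of the 5 genes of the C branch tested fell at 24 h against 0 h, and 3 did not pass. UGT71C1, whose product glucosylates flavonoids and hydroxycinnamic acids in vitro, read 338 at 0 h, 419 at 3 h and 34.98 at 24 h in the wild type and 364, 291 and 37.0 in lcbk1-2. It was at a similar signal at 0 h and 3 h, and under the floor at 24 h in both. It fell at least 5.32-fold by 24 h (adjusted p = 2.4e-04), a call close to given, and did not pass at 3 h. UGT71C2 was at 186 at 0 h, 177 at 3 h and 83.5 at 24 h in the wild type and at 187, 126 and 85.7 in lcbk1-2, and both 24 h arrays were the lowest. It fell 2.2-fold by 24 h (log2 change -1.14, adjusted p = 0.0029), which did not hold with the higher floor (-0.23) or without the wild-type 24 h or the lcbk1-2 0 h array (adjusted p = 0.0695 and 0.0567). UGT71C5, whose product glucosylates abscisic acid, changed by -0.34 at 3 h and 0.15 at 24 h, and UGT71C4 by -0.04 and 0.29, none of which passed. From 3 h to 24 h UGT71C5 rose by 0.49 (adjusted p = 0.038), but not with the lower floor or without a floor. UGT71C3, whose product conjugates methyl salicylate, had a signal of 164 at 0 h, 88.2 at 3 h and 177 at 24 h in the wild type and of 70.6, 93.7 and 229 in lcbk1-2, lowest at 3 h in the first and at 0 h in the second. Its change at 24 h, 0.91, did not pass (adjusted p = 0.085) and did under quantile normalization, median scaling and without the wild-type 0 h array (1.63). UGT71B1, the only UGT71B gene above the floor, rose by 1.31 at 24 h (SE 0.29, adjusted p = 0.011), with 1.91 in the wild type and 0.71 in lcbk1-2. That call was lost without the wild-type 0 h or the wild-type 24 h array, at 0.95 and 0.78, and at 3 h its change of 1.01 did not pass, except with the higher floor and in limma-trend.

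UGT80B1, a sterol glucosyltransferase that makes steryl glucosides of membranes, rose late. Its signal was 193 at 0 h, 145 at 3 h and 746 at 24 h in the wild type and 190.3, 181 and 751 in lcbk1-2. Both 24 h arrays were far above the other 4. The gene changed by -0.24 at 3 h, which did not pass, and rose 3.91-fold by 24 h (log2 change 1.97, SE 0.15, adjusted p = 2.2e-04).

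Of the 4 UGT85A genes tested 3 fell and 0 rose at 24 h, against 28.6% and 19.3% of all features. For UGT85A4 a call was close to given, and for UGT85A5 the floor at 24 h fixed the direction. UGT85A4 read 321 at 0 h, 112 at 3 h and 59.4 at 24 h in the wild type and 358, 103 and 26.2 in lcbk1-2, with each time below the one before it. It fell 3.16-fold by 3 h (log2 change -1.66, SE 0.14, adjusted p = 0.0016) and at least 5.14-fold by 24 h (adjusted p = 1.0e-04). Its 3 h call was lost with the lower floor (adjusted p = 0.0707) and without a floor (adjusted p = 0.0504), at changes of -1.66 and -1.65. UGT85A2 was at 1068 at 0 h, 709 at 3 h and 353 at 24 h in the wild type and at 1209, 1175 and 419.7 in lcbk1-2, with the 24 h arrays lowest and the 3 h arrays apart between the genotypes. It fell 2.95-fold by 24 h (log2 change -1.56, SE 0.18, adjusted p = 9.0e-04). UGT85A5, above the floor on 3 arrays, fell by 0.66 at 24 h on the log2 scale (adjusted p = 0.039), a call lost without any 1 of the 4 arrays of 0 h and 24 h (-0.94 to -0.38), and UGT85A7 changed by 0.15 and did not pass.

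UGT87A2, known for effects on flowering time, and UGT88A1 were the only members of their subfamily numbers. UGT87A2 did not pass at 3 h (0.50) and rose by 1.34 at 24 h (SE 0.20, adjusted p = 0.0026), a call lost without the wild-type 24 h array (1.15, adjusted p = 0.0741). UGT88A1 had a signal of 4685 at 0 h, 4744 at 3 h and 1955 at 24 h in the wild type and of 5510.2, 5379.6 and 2163 in lcbk1-2. The arrays of 0 h and 3 h were close and both 24 h arrays were the lowest. It changed by -0.01 at 3 h, which did not pass, and fell 2.47-fold by 24 h (log2 change -1.31, SE 0.13, adjusted p = 5.7e-04).

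Many UGT genes lie side by side in the genome, and such neighbours did not all move alike. In the order of protein-coding genes of the RefSeq assembly TAIR10.1, UGT84A1, UGT84A3 and UGT84A4 are adjacent. At 24 h the first 2 had risen (2.09 and 3.33) and the last had fallen (-0.73). UGT76C2 and UGT76C1 are adjacent, and their 3 h changes were 0.39, which did not pass, and -0.76. UGT73B5 and UGT73B4, also adjacent, both rose at 24 h, and the adjacent UGT71C2 and UGT71C1 both fell. UGT71C5, UGT71C4 and UGT71C3 form a run in which 0 genes passed at 24 h. In the run UGT85A7, UGT85A2, UGT85A5 and UGT85A3 the middle pair fell, UGT85A7 did not pass, and UGT85A3 was under the floor. How far a probe set of 1 such gene also reads transcripts of its neighbour was not tested, since probe sequences were not used here.

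The comparison of lcbk1-2 with the wild type asks whether loss of the kinase alters transcript levels. Over the 3 times, 0 UGT genes passed in limma, against 0.0128% of all features (2 of 15658), and 0 in limma-trend, against 24 of 15658. In limma 2 of the 33 had an unadjusted p under 0.05, beside 1292 of all 15658 features, which is no larger a share among the UGT genes. These were UGT78D1 (0.38, SE 0.14) and UGT85A2 (0.39, SE 0.14). At single times 1 array stood against 1, with no test. At 0 h 1 UGT gene was at least 2-fold apart (0.683% of all features), at 3 h 0 (0.722%) and at 24 h 2 (0.817%). At 0 h this was UGT71C3, at 164 in the wild type and 70.6 in lcbk1-2, the latter just above the floor. At 24 h these were UGT73C1, at 672 and 292, and UGT73B1, at 430.2 and 213, both lower in lcbk1-2. The next lowest was UGT71B1, at 1262 and 672. At 3 h UGT85A5 read 34.1 in the wild type but 113 in lcbk1-2, and UGT85A7 24.9 but 108. Their wild-type arrays lay under the floor, against which both differences stayed under 2-fold.

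At 0 h most of the tested UGT genes were somewhat higher in lcbk1-2: 25 were higher and 5 lower (75.8% higher, against 48.4% of all features), with a median log2 difference of 0.18, beside 0.00 for all features. At 3 h 17 were higher and 15 lower, with a median of 0.03, and at 24 h 16 and 14, with a median of 0.00. The wild-type 0 h array is the one whose hybridization controls read 2.23 times those of the others, and its part in this difference was not tested.

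**Figure D4:**
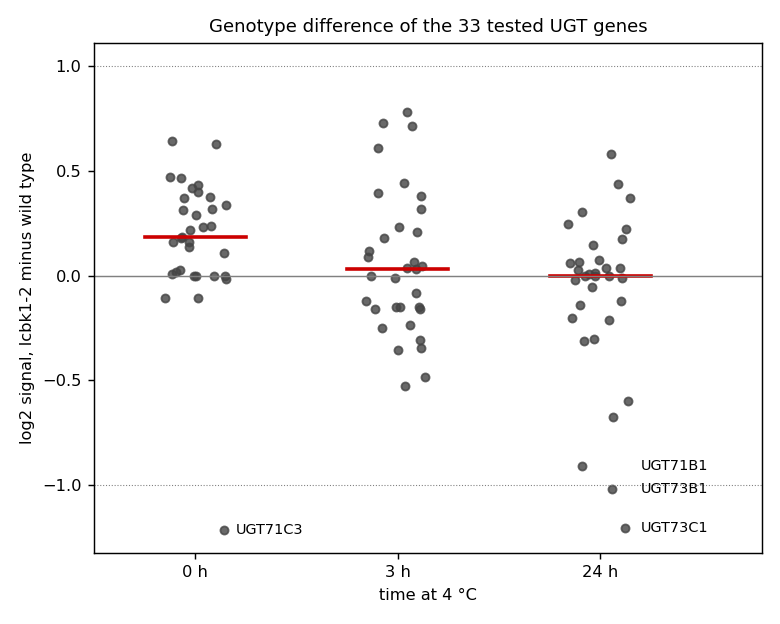
Log2 signal in lcbk1-2 minus that in the wild type for the 33 tested UGT genes at each time, 1 array against 1. Red bars are medians (0.18, 0.03 and 0.00), dotted lines mark 2-fold, and the lowest genes are named; sideways position within a time carries no value.

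The response to cold was set side by side in the genotypes, which share no array. At 3 h the wild type had 8 UGT genes changed by 2-fold or more (7 higher, 1 lower), against 7.29% of all features (4.41% and 2.89%). The count in lcbk1-2 was 6 (4 higher, 2 lower), against 8.38% (5.19% and 3.19%). Of these 3 were higher and 1 was lower in both. At 24 h the counts were 14 higher and 9 lower in the wild type, against 22.7% of all features (9.73% and 12.9%). In lcbk1-2 they were 12 and 8, against 22.8% (9.8% and 13%). In both genotypes 11 were higher and 8 lower, and 0 changed in opposite directions. How many of all features changed in both genotypes was not counted, so these overlaps are not shown to be particular to UGT genes. Over the 33 genes the changes of the genotypes correlated at 0.841 at 3 h and 0.953 at 24 h, beside 0.797 and 0.910 over all 15658 features. Such a correlation runs across genes, and genes do not replicate one another. The gene farthest above the line of equal change at 24 h was UGT71C3, at 0.12 in the wild type but 1.70 in lcbk1-2. Those below it included UGT73B1, at 0.47 and -0.86, UGT73C1 and UGT71B1. The differences between the genotypes' responses were not tested.

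**Figure D5:**
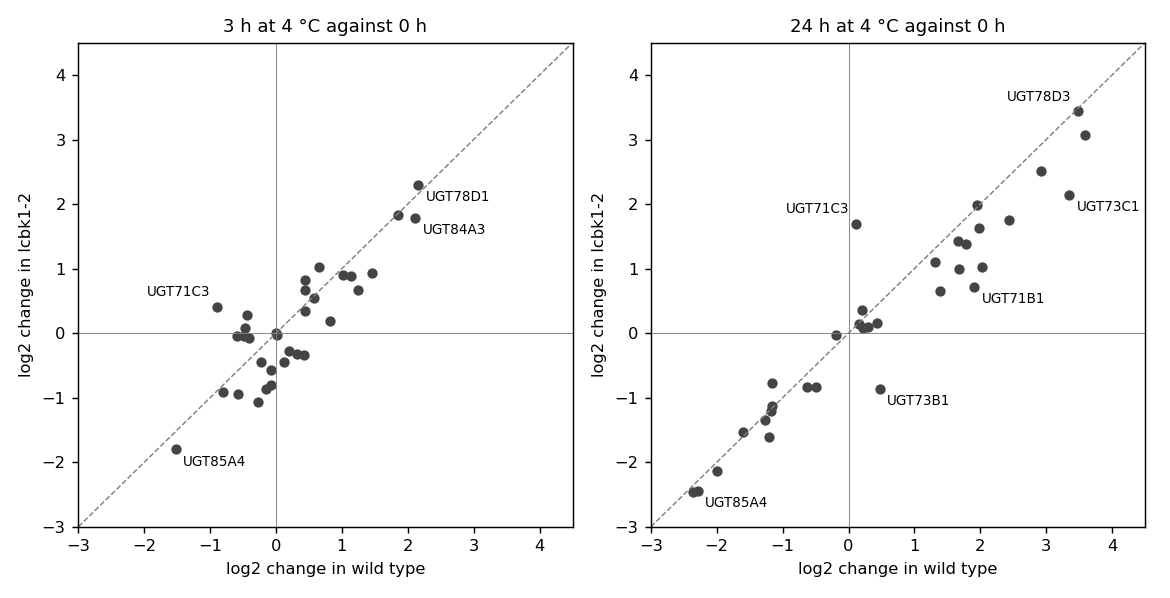
Log2 change against 0 h in lcbk1-2 (vertical) and in the wild type (horizontal) for the 33 tested UGT genes at 3 h (left) and 24 h (right), 1 array against 1; the dashed line marks equal changes. At 24 h UGT71C3 lies above that line, and UGT73B1, UGT73C1 and UGT71B1 lie below it.

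Other glycosyltransferase genes, annotated under another symbol or by locus only, gave 9 tested of 12 on named probe sets. At 3 h 4 rose and 0 fell, against 9.28% higher and 7.88% lower of all features, and at 24 h 3 rose and 2 fell, against 19.3% and 28.6%, with medians of 0.57 and 0.36, beside -0.03 and -0.11 for all features. AT2G16890 read 46.2 at 0 h, 249.7 at 3 h and 1969.8 at 24 h in the wild type and 41.0, 329.7 and 2683 in lcbk1-2, starting under the floor. AT2G22590 read 41.0 at 0 h, 87.3 at 3 h and 2946 at 24 h in the wild type and 25.2, 110.1 and 2652 in lcbk1-2, also starting under the floor. Both were above it on the 4 cold arrays and were tested only through these, so that their calls at 24 h are close to given. The same holds for AT4G14090, at 22.5 and 28.8 at 0 h, which rose by 1.28 at 3 h and 0.89 at 24 h. These genes make up all 3 rises at 24 h, and AT2G16890 and AT4G14090 are among the 4 at 3 h. The counts of rises thus rest in part on how the filter was passed. GT72B1, which the annotation also lists as UGT72B1 and which conjugates pollutants and monolignols, rose by 0.91 at 3 h (adjusted p = 0.0094). IAGLU, an auxin glucosyltransferase gene, changed by -0.96 at 24 h (adjusted p = 0.0078). The sterol glucosyltransferase gene SGT, listed also as UGT80A2, did not pass at 24 h (-0.25), where UGT80B1 had risen. In the list of UDP-sugar supply 1 of 25 genes was on a named probe set, USP, a UDP-sugar pyrophosphorylase, which fell by 0.80 at 24 h on the log2 scale (adjusted p = 0.0054). Of the phenylpropanoid and flavonoid synthesis list 2 of 22 were tested and 0 passed in limma at either time (DFR at 0.67 and ALDH2C4 at 0.15 at 3 h), and of the glucosinolate synthesis list 0 of 17 were on named probe sets.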

How the data were processed

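Each array's deposited values are intensities made with MAS5, per the submitters' processing notes, with version and settings not given in the sources used here. They proved to be linear, and the 2% trimmed mean was equal on all arrays. The 64 control probe sets of 22810 were removed. Gene names came from the platform annotation and the RefSeq gene table of TAIR10.1 (13513 had 1 gene, 503 several, 8730 none), so genes on unnamed probe sets are not described. The probe set with the highest mean stood for a gene, which left 22589. Values under the 35th percentile of all values were set to it, log2 was taken, and features above it on at least 2 arrays were fitted with limma 3.58.1 in R 4.3.3 (genotype and time additive, two-sided, Benjamini-Hochberg over all 15658 features, with 2 residual and 4.16 prior degrees of freedom). The fit was tested on simulated data. Signals on every array are given for genes past 0.05 and at least 2-fold changed the same way in both genotypes in any comparison of times, and for genes at least 2-fold apart between genotypes with the brighter array at least 2 times the floor; companion lists name at most 4 genes past 0.05 and 2-fold, and others there were chosen after their values were seen. The members and lists were chosen with earlier results of these data known. Alternatives were other scalings, floors and filters, the mean over probe sets, limma-trend and leaving out each array. No protein, promoter or probe sequence was used here.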

Additional observations from a re-analysis of the deposited data

Results flagged for a closer look

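In 2 of 66 pairs of a gene and a time, the genotypes moved in opposite directions from 0 h with changes at least 2-fold apart. How often all features met this rule was not counted, so these 2 are not shown to exceed what other genes give. For UGT71C3 at 3 h the log2 change was -0.89 in the wild type but 0.41 in lcbk1-2. For UGT73B1 at 24 h it was 0.47 in the wild type but -0.86 in lcbk1-2. Each change sets 1 array against 1, and the difference was not tested. For UGT71C3 the lcbk1-2 0 h array read 70.6, near the floor of 65.9, and the wild-type 0 h array is the one with hybridization controls at 2.23 times. At 3 h and 24 h the log2 signal of UGT71C3 was 0.09 and 0.37 higher in lcbk1-2. This flag, the gap of UGT71C3 at 0 h and its unequal change at 24 h all share the same 0 h arrays.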

How the results depend on the processing

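Arrays could not be paired by replicate, because each genotype and time had 1 array and no replicate numbers. The additive fit did compare times within a genotype and genotypes within a time. Of the calls, all 25 at 24 h held under quantile normalization, median scaling, the lower floor (20th percentile), no floor, the mean over probe sets and limma-trend. With the higher floor (50th percentile) 22 of 24 held (UGT85A5 was no longer tested). Of the 11 calls at 3 h, 11 held under quantile normalization and the mean over probe sets, 10 under median scaling and limma-trend, 9 with the higher floor, 6 with no floor and 5 with the lower floor. With no filter on low features the calls numbered 0 at 3 h, 12 at 24 h and 6 from 3 h to 24 h. Over all 22589 features they then numbered 124, 3585 and 1584. At 3 h 13 UGT genes had an unadjusted p under 0.05 in limma. Features held at the floor entered the estimate of the spread in this setting. Its prior SD went from 0.158 to 0.0048 and its prior degrees of freedom from 4.16 to 0.38. The lower floor gave 6 calls at 3 h. Leaving out 1 array gave 0 to 4 calls at 3 h, 16 to 25 at 24 h and 9 to 19 from 3 h to 24 h, with 1 residual degree of freedom, the arm left with 1 array being assumed to vary like the others. Counts of genes 2-fold apart between genotypes were 0 at 0 h with the higher floor, 3 at 3 h with the lower floor or none, and at 24 h 4 with either of these and 1 under quantile normalization. At 3 h in lcbk1-2 10 genes were 2-fold changed with the lower floor. For these counts the cause was not tested. No called change turned its direction in any alternative, though with the higher floor UGT76D1 at 3 h, UGT84A4 at 24 h and UGT85A4 from 3 h to 24 h stood at 0.00. Signals near the floor set the limit: nothing can be said of the 13 genes under it.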

Other observations

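Beta-glucosidases remove the sugars that glycosyltransferases attach, and genes of this family (BGLU and a number, and PYK10, also used above as a root marker) were described in the same way. Of 22 such genes 21 were on named probe sets and 11 were tested. At 24 h 2 rose and 4 fell, against 19.3% higher and 28.6% lower (47.8% in all) of all features, a total share near that of all features, with a median log2 change of -0.04, beside -0.11 for all features. BGLU25 had a signal of 443 at 0 h, 475 at 3 h and 4484 at 24 h in the wild type and of 517, 451 and 5641 in lcbk1-2, with only the 24 h arrays high (log2 change 3.39, adjusted p = 5.1e-05 in limma). BGLU40 read 254 at 0 h, 964 at 3 h and 140.3 at 24 h in the wild type and 252, 1201 and 121 in lcbk1-2, so that it rose at 3 h (2.09, adjusted p = 0.0013) and fell below its start by 24 h (-0.96, adjusted p = 0.0049). BGLU46 and BGLU45 are related to enzymes that release monolignols from their glucosides. At 24 h they changed by -1.77 (adjusted p = 4.0e-04 in limma) and -1.14 (adjusted p = 9.2e-04), beside UGT72E1 (-2.07) and UGT72E2 (-1.41). Both BGLU genes ended under the floor, so that their changes are bounds and the direction was fixed. Since values held at the floor show no spread, these p can be too small. Whether these genes move together beyond other genes was not tested. BGLU45 was named after its values were seen, for its place beside BGLU46. A larger fall than that of BGLU45 was seen in BGLU16, which lay above the floor on all 6 arrays. It changed by -1.75 at 24 h (adjusted p = 2.6e-04 in limma).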
